A study of Mus musculus with 9 samples.

Results

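The expression of 10 genes of hepcidin signalling and iron handling was followed in mouse liver. They were chosen by name, as the hepcidin genes Hamp and Hamp2 and the best known genes around them: Tfrc, Tfr2, Fth1, Ftl1, Slc40a1, Bmp6, Id1 and Smad7. They are 10 of the 32285 genes in the table, and all 10 passed the filter on low values. RNA-seq was performed on livers of Tet-OFF mice to compare the transcriptional effects of doxycycline (Dox) and tetracycline (Tc), which share a ring core and differ in the position of a hydroxyl group. All 9 mice received tamoxifen. The 3 Control libraries came from mice given tamoxifen only. The 3 Dox libraries came from mice that also drank Dox hyclate, and the 3 Tc libraries from mice that drank Tc hydrochloride, each drug at 2 mg/mL in water with 10 mg/mL sucrose for 7 days from 4 weeks of age. In Tet-OFF mice a CAG promoter drives CreERT2 from a piggyBac transgene, and tamoxifen lets Cre remove a stop cassette in front of the tetracycline-controlled transactivator at Rosa26. The Venus and mCherry reporters are then on until Dox or Tc shuts them off, so a drug effect and the loss of reporter expression cannot be told apart here. The drug-treated mice are described as male, and the strain on which they were bred and whether Control mice drank sucrose are not given in the sources used here.

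Hepcidin, the peptide made from Hamp, is secreted by hepatocytes and binds ferroportin (Slc40a1), the only known iron exporter of vertebrate cells, which is then degraded. Hamp transcription is driven by BMP ligands from sinusoidal endothelial cells acting through SMAD proteins, with Id1 and Smad7 as shared targets, by inflammatory cytokines acting through STAT3, and by the sensing of iron-loaded transferrin through transferrin receptor 2 (Tfr2). Inside the cell, iron regulatory proteins bind hairpins in mRNAs called iron-responsive elements: they block translation of the ferritin chains (Fth1, Ftl1) and ferroportin and stabilise the mRNA of transferrin receptor 1 (Tfrc), so mRNA and protein of these genes can differ.

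The values are normalized counts, in which each library's counts were divided by its own size factor. Recovered reads on genes ranged from 7426136 to 12183041 per library. The 10 genes were supported by between 13 reads (Id1, the lowest library) and 15999 reads (Ftl1, the highest library). The third library of each group was nearly a mixture of the other two in its values. Weights of 61.3% for Dox 1 and 34.6% for Dox 2, fitted without the 10 genes, gave a sum of 3123 normalized counts for Hamp, where Dox 3 had 3119.7. Over the 10 genes, library 3 was within 1.2-fold of such a sum for 9 genes in Control, 8 in Dox and 8 in Tc. Where libraries 1 and 2 were close, this count cannot tell a mixture from a replicate. Library 3 lay between them for 45.97% of genes tested in Control, 78.07% in Dox and 50.68% in Tc. Among genes more than 2-fold apart in libraries 1 and 2, it did for 501 of 586, 4139 of 4264 and 962 of 1022. The study describes the libraries of a group as independent biological replicates. If a library 3 was not a liver of its own, adjusted p-values over all 9 libraries are too small, so calls are also given without libraries 3. Libraries 1 and 2 of a group were more than 2-fold apart for 4264 of the 12100 genes tested in Dox, against 586 in Control and 1022 in Tc. Dox 2 was the highest or the lowest of the 9 libraries for 7 of the 10 genes and for 65.6% of all genes tested, a share near that of the members.

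The promoters of the hepcidin genes and the iron-responsive elements are shown because they are the sequences through which the pathways above are known to act. The 250 bases before the start site are given 5′ to 3′ on the minus strand of chromosome 7 (RefSeq, GRCm38.p6), with capitals for GGCGCC, the core of a BMP-responsive element, and TTCNNNGAA, the STAT motif; both motifs read the same on either strand. The Hamp window is chr7:30944030-30944279 and the Hamp2 window is chr7:30924182-30924431.
Hamp: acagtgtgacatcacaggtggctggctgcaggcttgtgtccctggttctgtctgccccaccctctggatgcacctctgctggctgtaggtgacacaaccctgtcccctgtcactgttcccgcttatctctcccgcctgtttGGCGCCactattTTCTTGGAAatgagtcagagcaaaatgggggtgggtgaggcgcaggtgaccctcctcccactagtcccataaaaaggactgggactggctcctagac
Hamp2: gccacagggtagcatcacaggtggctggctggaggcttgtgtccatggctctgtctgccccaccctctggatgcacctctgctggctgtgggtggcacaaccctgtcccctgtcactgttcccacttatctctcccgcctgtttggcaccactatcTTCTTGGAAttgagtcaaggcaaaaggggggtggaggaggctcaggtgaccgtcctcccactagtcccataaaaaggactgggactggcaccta
The paired windows were identical at 227 of 247 aligned bases (91.9%). The STAT motif was present in both. GGCGCC began 109 bases before the start site in Hamp and had no match in Hamp2, where the aligned bases differed by G145A, counted from 1 at the 5′ end of the Hamp window. Of all 32851 promoter windows of this length, 9.59% held GGCGCC, 7.02% held TTCNNNGAA and 0.368% held both. By GENCODE, the last 3 bases of the Hamp window lie in its first exon, and the Hamp2 window lies in an intron of 1 of its 3 coding transcripts. Among the other members, a window was found for Tfrc, Tfr2, Fth1, Ftl1 and Bmp6, and of these only 1 of the 2 Tfrc windows held either motif (GGCGCC, 89 bases before the start).

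Iron-responsive elements were searched as an unpaired C, 5 bases, the loop CAGTGN and 5 bases that pair with the first 5, G with T included. A match was found in the 5′ UTR of 30 of 20200 protein-coding genes (0.149%), among them Fth1, Ftl1 and Slc40a1, and in the 3′ UTR of 128 of 20884 (0.613%), among them Tfrc with 4 matches. Of the genes in question, Fth1 lies on chromosome 19, Ftl1 on 7, Slc40a1 on 1 and Tfrc on 16. Capitals mark the first bases of the loop, and for Tfrc the match nearest to the stop codon is shown (GENCODE transcripts, GRCm38).
Fth1, chr19:9982733-9982759, plus strand: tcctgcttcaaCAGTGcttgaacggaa
Ftl1, chr7:45459780-45459806, minus strand: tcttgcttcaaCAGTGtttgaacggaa
Slc40a1, chr1:45925466-45925492, minus strand: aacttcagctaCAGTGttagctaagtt
Tfrc, chr16:32631220-32631246, plus strand: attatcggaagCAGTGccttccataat

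Both hepcidin mRNAs were higher on average with Dox, the iron-sensing receptor Tfr2 and the exporter Slc40a1 were lower, and the ferritin and transferrin receptor 1 mRNAs showed no shared direction. With Tc, Hamp2 was higher in every library and Hamp lay on both sides of Control. A gene is called here if limma over all 9 libraries gave it more than a 2-fold change and an adjusted p (Benjamini-Hochberg) below 0.05. None of the 10 genes was called. Against Control, 0 of 10 were called with Dox, where 5% of 12100 genes were, and 0 of 10 with Tc, where 0.165% were. Between Dox and Tc, 0 of 10 were called and 0.215% of all genes. At an unadjusted limma p under 0.05, with no fold limit, there were 4 of 10 with Dox (Hamp, Hamp2, Tfr2 and Slc40a1; 29.1% of all genes), 3 of 10 with Tc (Hamp2, Fth1 and Smad7; 11.7%) and 2 of 10 between the drugs (Tfr2 and Fth1; 21.7%). The Dox and Tc comparisons share their Control libraries.

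DESeq2 on the recovered reads called Hamp and Hamp2 with Dox, 2 of 10 genes against 8.71% of all genes. With Tc it called Hamp2, 1 of 10 against 1.41%. Between Dox and Tc it called 0 of 10 against 4.67%. Without libraries 3, no member was called by either tool. The shares of all genes were then 0% by limma in each comparison, and by DESeq2 0.851% for Dox, 0.0702% for Tc and 0.244% between the drugs. With 2 libraries a group, an unadjusted p under 0.05 was reached by 0 of 10 genes in each comparison by limma, where 8.6%, 1.98% and 3.75% of all genes did so for Dox, for Tc and between the drugs. By DESeq2 it was reached by 3, 1 and 1 of the 10, and by 6.82%, 1.72% and 4.21% of all genes.

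Counted by whether the 3 libraries of one group all lay above or below those of the other, 3 of 10 genes did so with Dox (Hamp2 above, Tfr2 and Slc40a1 below), where 33.3% of all genes tested did. With Tc, 6 of 10 did (Hamp2 and Ftl1 above; Tfr2, Fth1, Slc40a1 and Bmp6 below), where 30.7% did. Between the drugs it was 2 of 10 (Tfr2 below and Fth1 above with Dox), where 24.6% did.

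**Figure D1:**
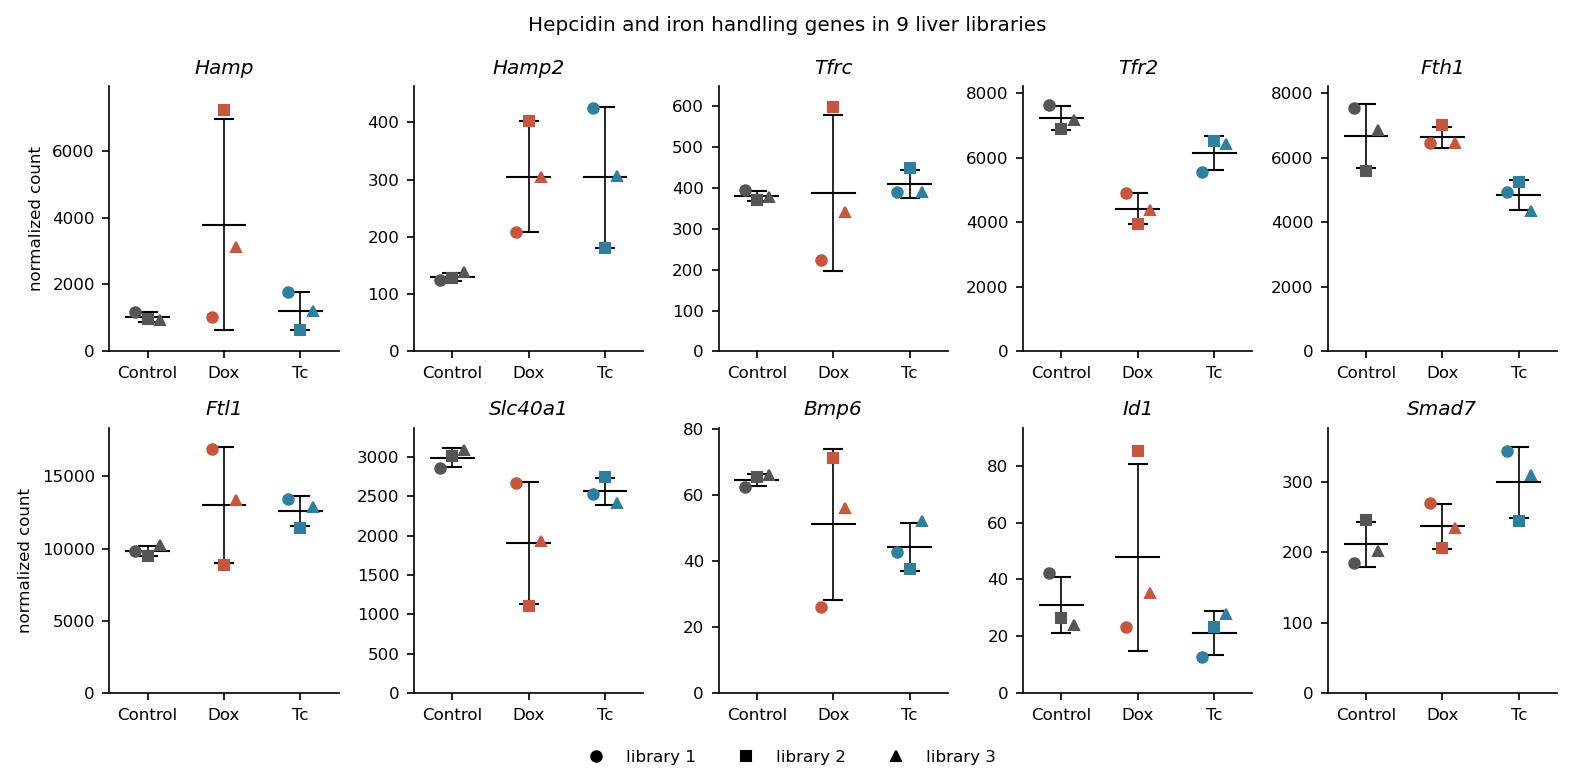
Normalized counts (vertical axes, each from 0) of the 10 genes in the Control, Dox and Tc libraries. Points are single libraries, with a shape for each library number, and bars are the group mean and SD (n = 3). Dox 2 is the highest library for Hamp, Tfrc, Bmp6 and Id1 and the lowest for Slc40a1, Tfr2 and Ftl1.

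**Figure D2:**
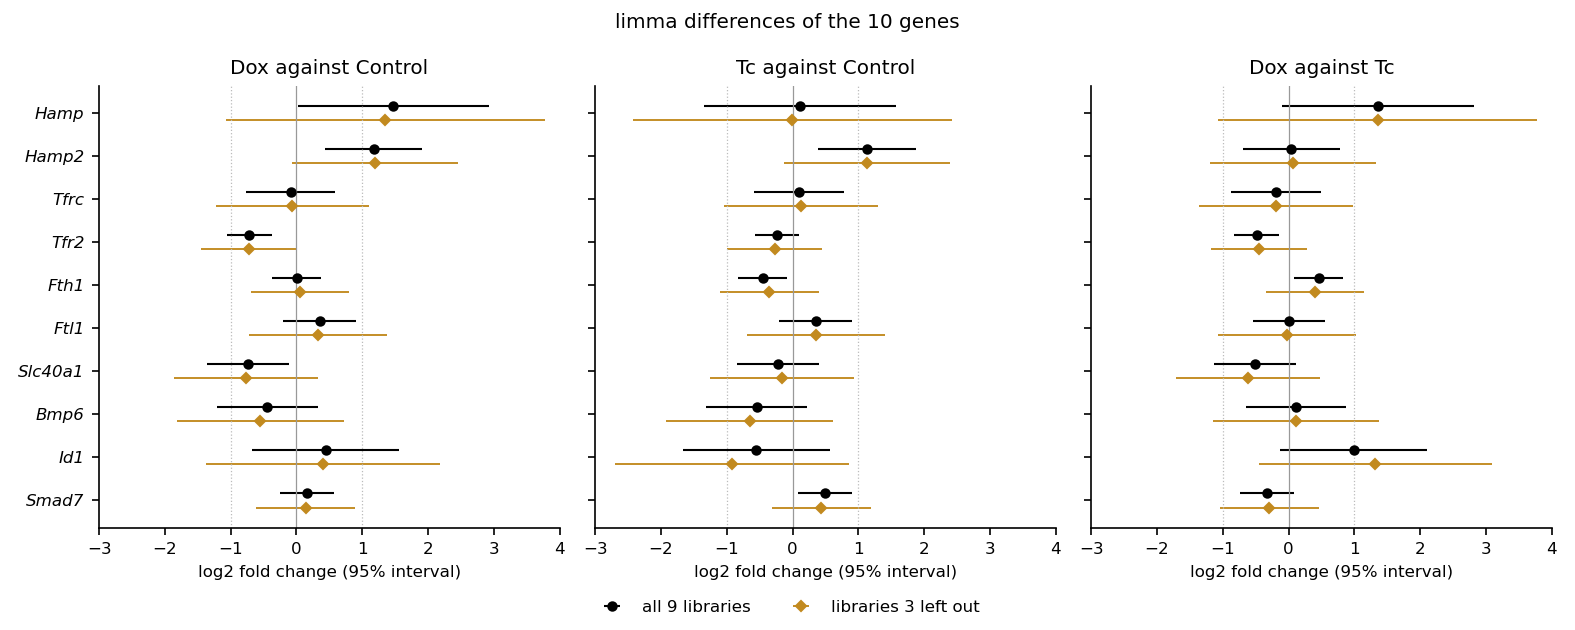
limma log2 fold change of the 10 genes (horizontal axis) with 95% intervals, for Dox against Control, Tc against Control and Dox against Tc. Black circles are the fit of all 9 libraries, ochre diamonds the fit without library 3 of each group, and dotted lines mark 2-fold. Every interval of the fit without libraries 3 includes 0.

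The genes differed widely in level. Per kilobase of annotated exon, the Control mean was highest for Ftl1 (7357 normalized counts per kb), followed by Hamp (2508), Fth1 (1920.1), Tfr2 (1669), Slc40a1 (331), Hamp2 (223), Tfrc (61.6), Smad7 (46.7), Id1 (26.7) and Bmp6 (16.6). The Control libraries of neighbours in this order did not overlap except for Fth1 and Tfr2, whose ranges were 1609 to 2176 and 1591 to 1763. The exon lengths join all annotated transcripts, so a gene with long rarely used exons, such as Fth1 with 3469 bases, reads low on this scale. With either drug, Hamp2 and Slc40a1 changed places. Per kb, Hamp2 ranged from 358 to 691 with Dox and Slc40a1 from 124 to 296. With Tc the ranges were 308 to 729 for Hamp2 and 268 to 305 for Slc40a1, next to each other without overlap.

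Hamp (ENSMUSG00000050440, chr7:30942368-30944032, GRCm38), which encodes hepcidin, had 1188, 955 and 942 normalized counts in Control 1 to 3, 1020.3, 7223 and 3119.7 in Dox 1 to 3, and 1769, 638 and 1198 in Tc 1 to 3. Dox 1 lay inside the Control range, while Dox 2 was 7.08-fold above Dox 1 and the highest library of the series for this gene. The Tc libraries lay on both sides of the Control range. By limma the log2 fold change with Dox was 1.48 ± 0.64 (SE), with a 95% interval of 0.02 to 2.93 and an adjusted p of 0.168. Over the 19 alternatives the adjusted p ranged from 0.0153 to 0.656, and it was 0.0153 with DESeq2 (log2 fold change 1.88). Leaving out Dox 1 gave 2.21 with an adjusted p of 0.0156, and leaving out Dox 2 gave the lowest value, 0.80. Without libraries 3 the value was 1.35 ± 0.98, with limma and DESeq2 adjusted p-values of 0.656 and 0.410. With Tc the log2 fold change was 0.11 ± 0.64, with an interval of -1.34 to 1.57. Dox and Tc differed by 1.36 ± 0.64 (interval -0.10 to 2.82, adjusted p = 0.252). That difference was 2.10, with an adjusted p of 0.0233, without Dox 1, so the call between the drugs rested on which Dox libraries were used.

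Hamp2 (ENSMUSG00000056978, chr7:30922372-30924681) is a close copy of Hamp on the same chromosome, not known to share its role in iron balance. It had 125, 127 and 139 normalized counts in Control, 208, 403 and 304 in Dox and 425, 179.9 and 307 in Tc. All 6 drug libraries were above all 3 Control libraries. Dox 2 was 1.93-fold above Dox 1, a smaller step than that of Hamp, and Tc 1 was 2.36-fold above Tc 2. Against Control, the log2 fold change was 1.17 ± 0.33 with Dox (adjusted p = 0.0594) and 1.13 ± 0.33 with Tc (adjusted p = 0.262), and the drugs differed by 0.04 with an interval of -0.70 to 0.78. DESeq2 gave adjusted p-values of 0.00784 and 0.0312 for the drugs against Control. The limma value also passed with Dox without Dox 1 (adjusted p = 0.0199) and without Tc 2 (0.0371). Without libraries 3 the values were 1.19 ± 0.51 and 1.13 ± 0.51, with limma adjusted p-values of 0.573 and 1 and DESeq2 adjusted p-values of 0.436 and 1. Over the alternatives the adjusted p for Dox ran from 0.00784 to 0.573, and that for Tc from 0.0312 to 1. Only uniquely mapped reads were counted, so reads that the hepcidin copies share are missing from both.

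A ratio of a pair of genes inside 1 library does not depend on the scaling. The 3 pairs given here were chosen after the values were seen. The ratio of Hamp to Hamp2 was 9.51, 7.49 and 6.80 in Control, 4.89, 17.9 and 10.2 in Dox and 4.17, 3.55 and 3.91 in Tc. All Tc libraries lay below all Control libraries, and the Dox libraries lay on both sides. The ratio of the ferritin chains, Fth1 to Ftl1, was 0.766, 0.587 and 0.671 in Control, 0.383, 0.794 and 0.481 in Dox and 0.368, 0.458 and 0.337 in Tc. Here too the Tc libraries were all below Control and Dox 2 was above it. The ratio of the transferrin receptors, Tfr2 to Tfrc, was 19.4, 18.7 and 19.0 in Control, 21.9, 6.60 and 12.9 in Dox and 14.2, 14.5 and 16.5 in Tc, again with Tc wholly below Control and Dox 1 and Dox 2 on opposite sides of it.

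**Figure D3:**
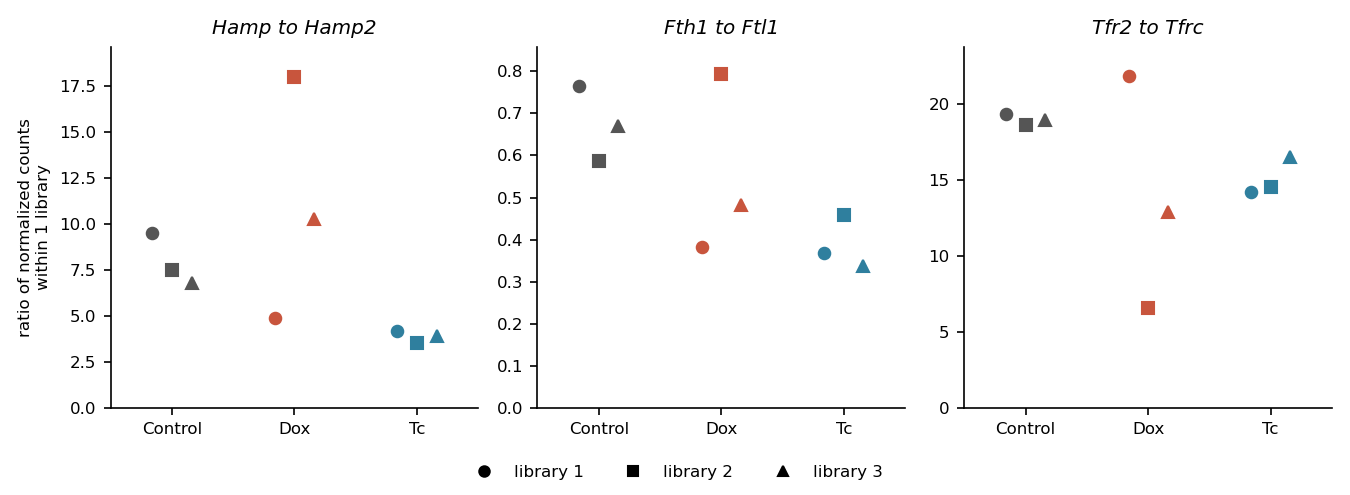
Ratio of the normalized counts of Hamp to Hamp2, Fth1 to Ftl1 and Tfr2 to Tfrc within each library (vertical axes from 0), for Control, Dox and Tc. Points are single libraries, with a shape for each library number. In all 3 pairs the Tc libraries sit below the Control libraries, and the Dox libraries spread from below to above them.

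Tfr2 (chr5:137569840-137587481, GRCm38), the hepatocyte sensor of transferrin, had the lowest adjusted p of the members with Dox. It had 7645, 6899 and 7168 normalized counts in Control, 4906, 3947 and 4391 in Dox and 5548, 6506 and 6419 in Tc. The Dox libraries were all below the Tc libraries, which were all below the Control libraries. Dox against Control gave a log2 fold change of -0.72 ± 0.15, with an interval of -1.06 to -0.38 and an adjusted p of 0.0265, past the threshold for p but under the 2-fold limit. It was the 1 member past that p, where 8.41% of all genes were. Over the 19 alternatives the value stayed between -0.80 and -0.54, and the adjusted p ranged from 1.12e-05 (DESeq2) to 0.573 (without libraries 3, limma; 0.408 by DESeq2), under 0.05 in 8 of them. Tc against Control gave -0.24 ± 0.15 (adjusted p = 0.602). Dox against Tc gave -0.48 ± 0.15, with an interval of -0.82 to -0.14 and adjusted p-values of 0.148 by limma and 0.0123 by DESeq2. Scaling every library to the same total moved the median of all genes by 0.17 in Dox against Control and by 0.17 in Dox against Tc, so the Dox values in the text are relative to that choice. In whole tissue, fewer cells of a type and less RNA per cell cannot be told apart.

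Bmp6 (BMP6, the main ligand of hepcidin expression in iron loading) had 62.5, 65.5 and 66.1 normalized counts in Control, 26.3, 71.3 and 56.3 in Dox and 43.0, 37.8 and 52.2 in Tc. The Tc libraries were all below Control, while Dox 1 was the lowest and Dox 2 the highest of the 9 libraries. Log2 fold changes were -0.44 ± 0.33 with Dox and -0.55 ± 0.33 with Tc, with adjusted p-values of 0.408 and 0.588. The gene rested on 25 to 74 reads per library. Bmp6 is made by sinusoidal endothelial cells. The summed level of 6 markers of these cells (Stab2, Lyve1, Clec4g, Kdr, Oit3 and Fcgr2b) ranged from 4531 to 4718 in Control, 2307 to 2796 in Dox and 3560.4 to 4081 in Tc. Each of the 6 was lower with either drug, and 1 was called with Dox, where 5% of all genes were. The part of these cells in the Bmp6 values was not tested.

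Of the 17 genes listed as hepcidin regulators, 16 were tested, and 1 was called with Dox and none with Tc or between the drugs. The shares of all genes called were 5%, 0.165% and 0.215%. Fgl1, a liver-made protein known to bind BMP ligands and blunt their effect on hepcidin, fell with Dox. It had 13633, 11158 and 11614 normalized counts in Control, 957, 1528 and 1088 in Dox and 2302, 13257 and 6584 in Tc. All Dox libraries were below all others, and Tc 1 and Tc 2 differed 5.76-fold. The summed level of 9 acute phase genes, given below, was also lowest in the Dox libraries (61235 to 127290 normalized counts). That sum was 154036 in Tc 1 and 537616 in Tc 2. Within Dox the order was not shared: Fgl1 was highest in Dox 2, where the sum was lowest. The part of inflammation in the Fgl1 values was not tested. Its log2 fold change was -3.37 ± 0.53 (adjusted p = 0.0129), and without libraries 3 DESeq2 still called it (adjusted p = 0.00391) while limma did not (0.559). DESeq2 also called it between the drugs (log2 fold change -2.63, adjusted p = 3.89e-05), though not without libraries 3 (0.109). The median of the list was 0.07 with Dox, beside 0.00 over all genes tested, and -0.04 with Tc. By the rule for named genes, Bmpr1a, a BMP receptor, was above Control in every Tc library (log2 fold change 0.37 ± 0.12, adjusted p = 0.295), and Furin, the protease that matures hepcidin, was higher with Dox than with Tc in every library (0.65 ± 0.17, adjusted p = 0.122). Bmpr1a was above Control in every Dox library too, at 392 to 442 normalized counts against 308 to 332. Furin was at 6001 to 8477 normalized counts in Dox, above its Control range of 4012 to 4582.

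Downstream of the BMP receptors, Id1, an early SMAD target, had 42.3, 26.5 and 24.2 normalized counts in Control, 23.2, 85.1 and 35.2 in Dox and 12.7, 23.4 and 27.8 in Tc. Dox 2 was the highest library and 3.67-fold above Dox 1, which was below all Control libraries. Log2 fold changes of Id1 were 0.44 ± 0.49 with Dox and -0.55 ± 0.49 with Tc, and the drugs differed by 0.99 ± 0.49 (interval -0.13 to 2.11, adjusted p = 0.267). Id1 rested on 13 to 74 reads. Smad7, an inhibitor of the pathway that its own signal induces, had 185, 246 and 202 normalized counts in Control, 269.6, 206 and 235 in Dox and 344, 244 and 309 in Tc. Its highest values were in Tc 1 and Tc 3, and Dox 2 lay inside the Control range. For Smad7, the log2 fold change was 0.17 ± 0.18 with Dox and 0.50 ± 0.18 with Tc, with adjusted p-values of 0.564 and 0.364.

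Of the 8 BMP-SMAD targets, 7 had a log2 fold change above 0 with Dox, and the median was 0.63 beside 0.00 over all genes tested. With Dox 1 of them was called, where 5% of all genes were. Smad9, a receptor-regulated SMAD that the pathway also induces, rose with Dox. It had 139.7, 105 and 145 normalized counts in Control, 227, 758 and 413 in Dox and 375, 227 and 256 in Tc. All drug libraries were above Control. Its log2 fold change was 1.68 ± 0.40 with Dox (adjusted p = 0.0381) and 1.11 ± 0.40 with Tc (0.358), and without libraries 3 its adjusted p with Dox was 0.566 by limma and 0.125 by DESeq2. Atoh8 and Bambi, also induced by BMP signals, had the same order of the Dox libraries. Atoh8 was at 65.3 normalized counts in Dox 1 and 401 in Dox 2, against 84.0 to 97.9 in Control. DESeq2 called Atoh8 between the drugs (log2 fold change 1.60, adjusted p = 0.0348), limma did not (1.24 ± 0.53, 0.225), and its groups overlapped. Without libraries 3 its DESeq2 adjusted p was 0.788. Bambi was above Control in every Dox library, from 21.1 to 55.2 against 18 to 19.5 (log2 fold change 0.85 ± 0.33, adjusted p = 0.135). Id3 and Smad6 were also higher in Dox 2 than in Dox 1, while Smad7 and Id2 were lower. Id2, added after its values were seen, had 926, 518 and 788 normalized counts in Dox, all above its Control range of 416 to 486. With Tc the median of the list was -0.06, with 3 of 8 genes above 0 and none called.

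Inflammatory signals reach Hamp through STAT3. Of the 8 genes of the IL-6 and STAT3 arm, none was called in any comparison, by limma or DESeq2, and the median log2 fold change was -0.18 with Dox and -0.13 with Tc. Creb3l3, a hepatocyte transcription factor cleaved in the stress response of the endoplasmic reticulum, was above Control in every drug library, by 0.53 ± 0.13 with Dox (adjusted p = 0.0456) and 0.63 ± 0.13 with Tc (0.138), both under the 2-fold limit. Without libraries 3, limma gave Creb3l3 adjusted p-values of 0.584 and 1. Stat3 was below Control in every Tc library (-0.59 ± 0.23, adjusted p = 0.381) and Il6st in every Dox library (-0.31 ± 0.14, adjusted p = 0.169). Socs3, a STAT3 target singled out after its values were seen, had 76.9, 454 and 180.4 normalized counts in Dox, so Dox 1 was below and Dox 2 above its Control range of 96.3 to 186. The summed level of 9 acute phase genes, which answer to inflammatory cytokines, ranged from 361824 to 423042 in Control, 61235 to 127290 in Dox and 154036 to 537616 in Tc. With Dox 8 of the 9 were called, all lower, where 5% of all genes were called. Saa1, singled out from these genes, was at 36.8 normalized counts in Dox 2, where Hamp was highest, against 16764 to 23519 in Control. It was at 30975 in Tc 2, where Hamp was lowest. Dox 2 had the lowest summed acute phase level of the 9 libraries, and it was the lowest library for 32.1% of all genes tested. Of these genes only Orm2 was lowest elsewhere, in Dox 1 (93.7 normalized counts, against 118 in Dox 2). The part of inflammation in the Hamp values was not tested.

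**Figure D4:**
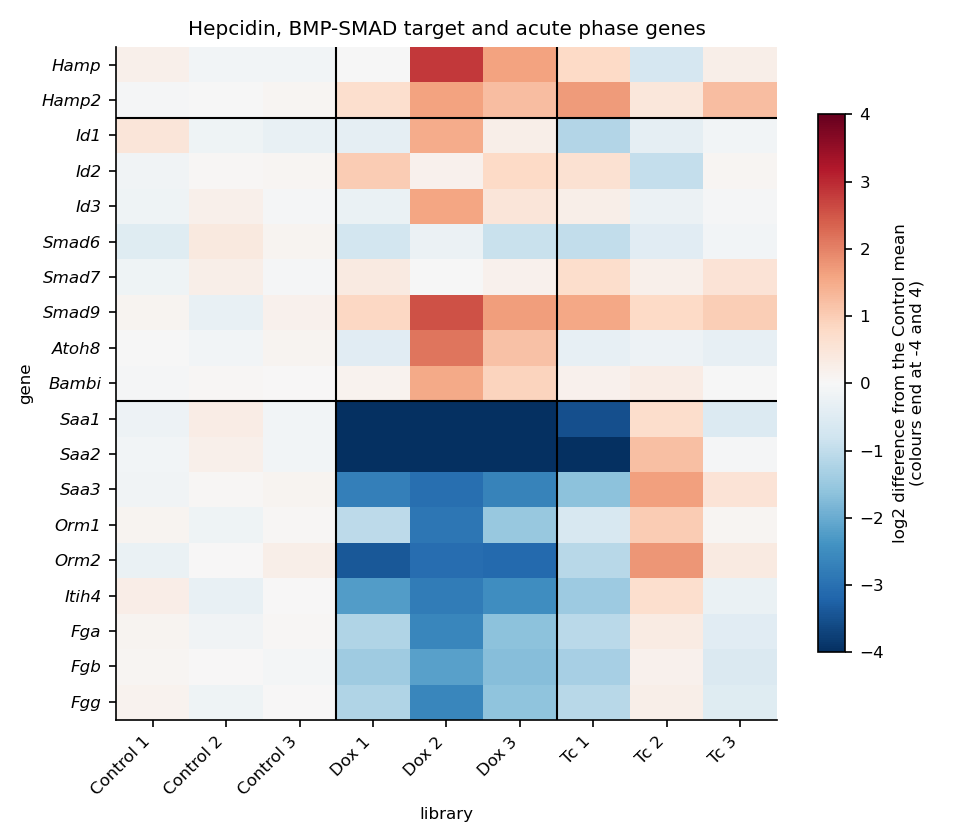
Difference of log2(normalized count + 1) from the Control mean for the hepcidin genes, the 8 BMP-SMAD targets and the 9 acute phase genes (rows) in each library (columns); red is above and blue below the Control mean, and colours end at -4 and 4. Dox 2 is red for Hamp, Id1, Id3, Smad9, Atoh8 and Bambi, and close to the Control mean for Id2 and Smad7. It is blue for every acute phase gene. Tc 2 is blue for Hamp and above the Control mean for the acute phase genes, though close to that mean for Fga, Fgb and Fgg.

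Among the genes of uptake and export, Tfrc, the receptor that takes up transferrin-bound iron, had 395, 369.8 and 378 normalized counts in Control, 224, 598 and 340.5 in Dox and 391, 448 and 389 in Tc. Control and Tc lay close together, and Dox 1 and Dox 2 were the lowest and the highest of the 9 libraries, 2.67-fold apart. The log2 fold change was -0.09 ± 0.30 with Dox, where the group means were 388 and 381, so its sign was not settled: with DESeq2 and edgeR, with the same total per library and without Dox 1 it was above 0. With Tc it was 0.10 ± 0.30.

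Slc40a1 (chr1:45908068-45926523), the exporter that hepcidin acts on, had 2852, 3007 and 3088 normalized counts in Control, 2667, 1112 and 1934 in Dox and 2529, 2741 and 2408 in Tc. All drug libraries were below Control, and Dox 2, the library with the most Hamp, had the least Slc40a1. Dox 2 was the lowest library for 32.1% of all genes tested, and hepcidin acts on the protein, while these are mRNA values. The log2 fold change was -0.74 ± 0.28 with Dox (interval -1.36 to -0.11, adjusted p = 0.124), -0.22 ± 0.28 with Tc (adjusted p = 0.825) and -0.51 ± 0.28 between the drugs (adjusted p = 0.294). Without Dox 1 the value with Dox was -1.02 and was called (adjusted p = 0.0180), without Dox 2 it was -0.39 (0.0983), without libraries 3 it was -0.77 ± 0.44 (0.616), and over the alternatives the adjusted p ranged from 0.0180 to 0.779. Slc40a1 is also made by Kupffer cells. The summed level of 6 Kupffer cell markers (Clec4f, Timd4, Cd5l, Vsig4, Adgre1 and C1qa) ranged from 6324 to 10371 in Control, 1762 to 4486 in Dox and 2997 to 5979 in Tc. All 6 were lower with either drug, and 2 were called with Dox, where 5% of all genes were. That sum was lowest in Dox 1, where Slc40a1 was the highest of the Dox libraries, and the part of these cells in the Slc40a1 values was not tested.

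Of the 21 genes of iron and heme uptake, transport and export, all tested, 2 were called with Dox, both lower, and none with Tc or between the drugs. Of all genes tested, 5% were called with Dox (138 raised and 467 lowered), 0.165% with Tc and 0.215% between the drugs. The median log2 fold change was -0.52 with Dox and -0.21 with Tc, beside 0.00 over all genes tested in each comparison. Steap4, a ferrireductase, fell with Dox, from 1982, 2574 and 2339 normalized counts in Control to 1049, 559 and 757, with 1469, 2009 and 1747 in Tc. Its log2 fold change was -1.58 ± 0.23 (adjusted p = 0.0108). Haptoglobin (Hp), which binds free haemoglobin and is an acute phase protein, fell too, by 1.75 ± 0.41 on the log2 scale (adjusted p = 0.0389). It had between 71346 and 86726 normalized counts in Control and between 17091 and 33222 in Dox. Without libraries 3, neither was called by limma (0.559 and 0.573) or by DESeq2 (0.0822 and 0.213).

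DESeq2 called 5 further genes of this list with Dox, where it called 8.71% of all genes. Hemopexin (Hpx, log2 fold change -1.22), the haem receptor Lrp1 (-1.06), the haemoglobin scavenger receptor Cd163 of macrophages (-1.73) and the siderophore binder Lcn2 (-4.91) were lower. Haem oxygenase 1 (Hmox1, 2.11), which frees iron from haem, was higher. Without libraries 3 none of the 5 was called, with DESeq2 adjusted p-values from 0.343 to 0.520. Hmox1 had 185 normalized counts in Dox 1, 2083 in Dox 2 and 816 in Dox 3, against 181 to 303 in Control and 171 to 228 in Tc. Dox 1 thus lay inside the Control range. Lcn2 and Hp are acute phase genes as well, and Lcn2 was at 24.2 to 376 normalized counts in Dox, 5041 to 6067 in Control, 142 in Tc 1 and 16169 in Tc 2. Hpx was at 33378 to 56726 in Dox, 95743 to 106043 in Control, 68921 in Tc 1 and 156352 in Tc 2. Cd163 was lowest in Dox 1 (90.6), where the summed Kupffer cell markers were lowest too (1762). The parts of inflammation and of these cells in the values of this list were not tested. Between the drugs, DESeq2 called Steap4, Hp, Hpx, Lrp1 and Lcn2 lower and Hmox1 higher with Dox, with log2 fold changes from -5.32 to 2.39. Without libraries 3 none of these differences was called (DESeq2 adjusted p-values from 0.428 to 0.783). With Tc against Control the genes of the list with the largest differences among those that did not overlap were Cp (ceruloplasmin, a ferroxidase; -0.60 ± 0.24, adjusted p = 0.400) and Cd163 (-1.28 ± 0.58, adjusted p = 0.446).

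Iron is stored in ferritin, a shell of heavy and light chains. The heavy chain mRNA Fth1 had 7549, 5582 and 6851 normalized counts in Control, 6452, 7012 and 6438 in Dox and 4942, 5245 and 4337 in Tc. The Dox libraries lay within the Control range and the Tc libraries below all others. The log2 fold change was 0.00 ± 0.16 with Dox, of no settled sign, and -0.45 ± 0.16 with Tc (interval -0.83 to -0.08, adjusted p = 0.362), and the drugs differed by 0.46 ± 0.16 (adjusted p = 0.175).

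The light chain mRNA Ftl1 had 9858, 9508 and 10209 normalized counts in Control, 16847, 8829.7 and 13371 in Dox and 13418, 11451 and 12886 in Tc. Tc was above Control in every library, while Dox 1 was the highest and Dox 2 the lowest of the 9. The log2 fold change was 0.35 ± 0.24 with Dox and also 0.35 ± 0.24 with Tc, with adjusted p-values of 0.362 and 0.642, and the drugs differed by 0.00 with an interval of -0.55 to 0.55. Without Dox 2 the value with Dox was 0.61, which had the lowest adjusted p of the alternatives (0.0339) and stayed under the fold limit. Both chains have processed copies in the genome, so reads shared with those copies are missing from their counts.

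Of the 6 storage and release genes, 5 were tested, Ftmt being at 0 in all libraries, and none was called by limma. Ncoa4, which delivers ferritin for breakdown, was higher with Dox than with Tc in every library. It had 465, 1150.3 and 722 normalized counts in Dox and 389, 344 and 320.0 in Tc, against 378 to 550.4 in Control. DESeq2 called this difference (log2 fold change 1.15, adjusted p = 0.0129), and limma did not (1.06 ± 0.30, 0.133). Without libraries 3 its DESeq2 adjusted p was 0.768.

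In the remaining lists limma called no gene. Of 8 genes of the IRP system and other mRNAs with iron-responsive elements, none was called. Cdc42bpa, whose mRNA carries such an element, was above Control in each drug library (0.63 ± 0.15 with Dox, adjusted p = 0.0365; 0.573 without libraries 3). Of 18 genes of mitochondrial iron import and Fe-S cluster assembly, none was called by limma, 5 were above Control in every library with Dox (16.1% of all genes were) and 5 with Tc (15.8%), and the median log2 fold change was 0.22 and 0.17. Slc25a28, a mitochondrial iron carrier, was called by DESeq2 with Dox (log2 fold change 1.03, adjusted p = 0.0499), but not without libraries 3 (0.564). Hspa9, the chaperone of cluster transfer, was 0.59 ± 0.14 higher with Dox (adjusted p = 0.0374, under the fold limit, and 0.578 without libraries 3), and Fdx1, a ferredoxin, 0.52 ± 0.13 higher with Tc (adjusted p = 0.185). Neither was particular to its drug: Hspa9 was also above Control in every Tc library, and Fdx1 in every Dox library.

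Over all 88 listed genes, members included, 86 were tested, and limma called 4 with Dox (1 up, 3 down; 5% of all genes were called), none with Tc (0.165%) and none between the drugs (0.215%). Steap4, Hp, Fgl1 and Smad9 are the 4. By edgeR the counts were 4, 0 and 0, and at an unadjusted limma p under 0.05 with the fold limit they were 10, 2 and 10, where 10.3%, 3.21% and 6.52% of all genes passed. The count with Dox was 0 without libraries 3 and depended on single libraries. It was 0 without Control 2, without Control 3 or without Dox 3, 2 without Control 1 or without Tc 3, 7 without Dox 2 and 16 without Dox 1. The share of all genes in these fits is not given, so the counts cannot be read as particular to the listed genes. DESeq2 called 12 with Dox, 1 with Tc and 9 between the drugs, where 8.71%, 1.41% and 4.67% of all genes were called. Without libraries 3 it called 1 (Fgl1, with Dox), where 0.851% of all genes were called. Of the 86, 34 did not overlap with Control in the Dox libraries, near the 33.3% of all genes, 25 in the Tc libraries (30.7%) and 22 between the drugs (24.6%).

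**Figure D5:**
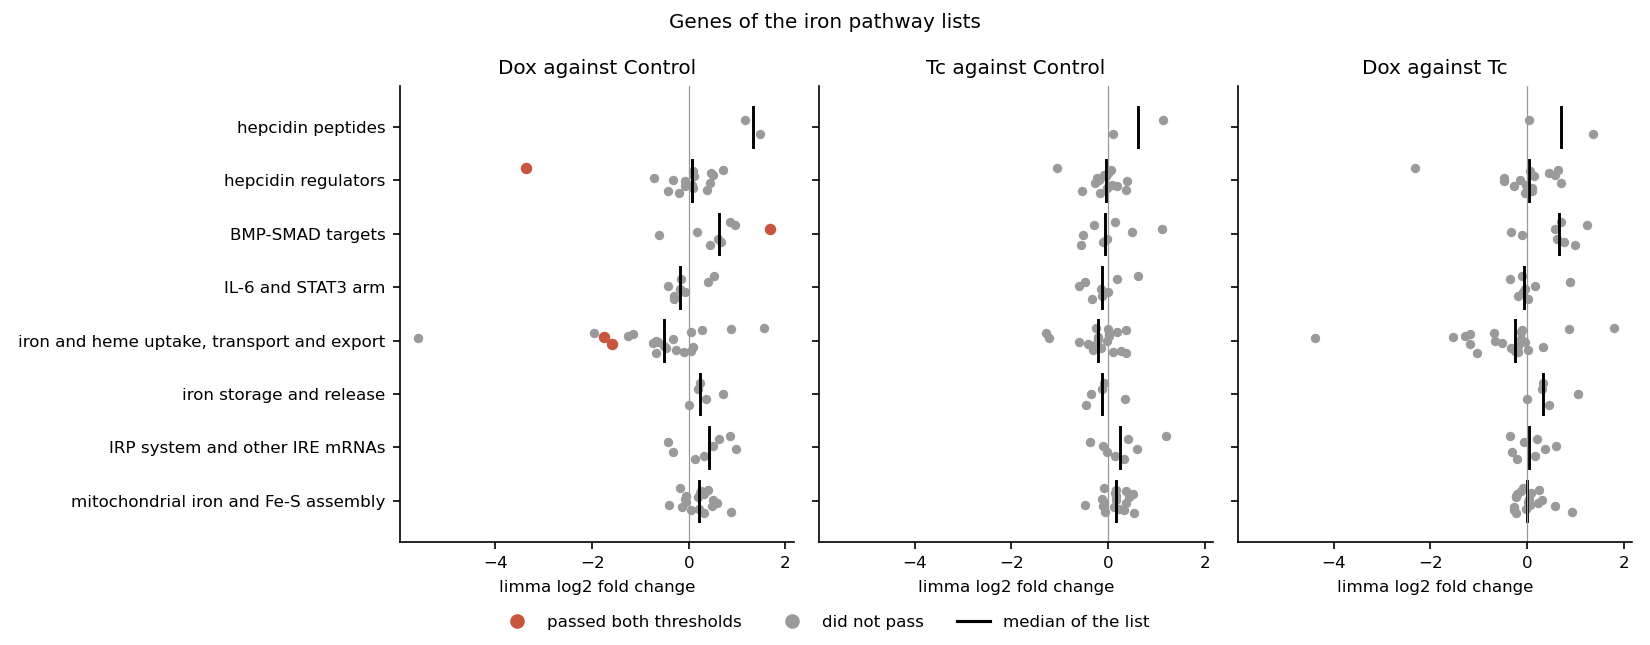
limma log2 fold change (horizontal axis) of each tested gene of the 8 pathway lists (rows), for Dox against Control, Tc against Control and Dox against Tc. Red points passed both thresholds, grey points did not, and black lines are list medians. Fgl1, Smad9, Steap4 and Hp are the red points with Dox, and no point is red in the other comparisons.

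The values above sit in livers whose cell type markers also differed. The summed level of 6 hepatocyte markers, led by Alb, ranged from 1207008 to 1704201 in Control, 471097 to 958886 in Dox and 951144 to 1390858 in Tc, none called. Of these 6, 5 were lower with Dox and 3 with Tc. Cps1, an enzyme of the urea cycle, was at 90059 ± 33539 normalized counts with Dox (SD, n = 3) and at 53676 ± 5508 in Control. The summed level of 6 erythroid markers found ranged from 1416 to 5743 in Control, 717 to 1127 in Dox and 914 to 1218 in Tc. With Dox 4 of the 5 tested were called, all lower, where 5% of all genes were called. The 5 stellate cell markers summed to 2879 to 3070.4 in Control, 2275 to 3713 in Dox and 2809.6 to 3093 in Tc, with 3 of 5 lower with Dox and 2 with Tc. The sums of 4 bile duct cell markers (79.4 to 326 over all libraries) and of 5 neutrophil markers (3.16 to 298) were low, and none of the stellate, bile duct or neutrophil markers was called. The part of these cells in the iron gene values was not tested.

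The genes whose pattern over the 9 libraries was most like that of Hamp were found by the mean absolute difference of log2(normalized count + 1), each gene set against its own Control mean. They were Snhg15 (0.18), Pik3ap1 (0.20), Ccnl1 (0.21), Pnpla2 (0.23) and Nop58 (0.25), beside a median of 0.80 over 12099 genes. All 5 shared the order of the Dox libraries. Pnpla2, the adipose triglyceride lipase, had 929.8 normalized counts in Dox 1, 6583 in Dox 2 and 2662 in Dox 3, and 883.8 to 1004 in the other 6 libraries. None of the members was near: Hamp2 ranked 2195 by this measure (0.65) and Id1 3243 (0.70). A likeness over 9 libraries, with library 3 close to a sum of the others, describes these libraries only.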

How the data were processed

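RNA-seq was performed on 9 liver libraries, 3 per group, of single-end 86-base reads. Per the labels and the study's methods, the authors trimmed reads with cutadapt, aligned them to mm10 with STAR, kept uniquely mapped reads, counted them per gene with HTSeq 2.0.5 and normalized with DESeq2 1.42.0. The strand setting of the counting is not given in the sources used here, so overlapping antisense genes cannot be told apart. As deposited by the authors, the table holds a signal: read counts over the size factor of the library. Whole reads were recovered for 100% of values (within 0.01 read).

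Log2(normalized count + 1) was tested with limma 3.58.1 (R 4.3.3, with a trend) in 1 model of 9 libraries, adjusted (Benjamini-Hochberg) across the 12100 genes whose mean was 10 or more. DESeq2 1.42.0 and edgeR 4.0.16 were run on the recovered reads, with DESeq2 size factors of its own. An SE or interval (95%) is that of the limma fit. The limma step was tested on simulated data. The labels name no animal for a library beyond its number, while the study calls the libraries of a group biological replicates. The p-values set group differences against the spread between these libraries. That is the spread between animals only if each library is a liver of its own.

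The members, gene lists and rules were chosen with earlier results of these data known. Named list genes were those called by limma or DESeq2 and, per list and comparison, the 2 with the largest change among those without overlap; the 5 genes nearest to Hamp were ranked over all genes tested. Deviations from the group means were correlated between Dox and Tc libraries of the same number (r = 0.287, 0.321 and 0.182), while Control did not pair with either (-0.081 to 0.055). These numbers are those of the sample labels. Symbols were found for 32158 identifiers, 3 list genes were matched under older symbols, and Ahsp was not matched. Alternatives covered the pseudocount, filter, scaling, test, groups in the fit, block, thresholds and each library left out. 1 list gene named by the rule is not reported here.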

Additional observations from a re-analysis of the deposited data

Results flagged for a closer look

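For 3 genes of iron storage and release, all Dox libraries lay above the mean of the Control libraries and all Tc libraries below it on the log2 scale. Such a split was looked for in the 10 members and the named list genes, and no member showed it. The named list genes had been picked for calls or for groups without overlap in these same comparisons, which makes such a split more likely. The share of all genes tested with this split was not counted, so it cannot be read as particular to these genes. Ncoa4, the receptor that carries ferritin to breakdown, differed between Dox and Tc by 1.06 ± 0.30 (SE), and against Control it was at 0.70 with Dox and at -0.36 with Tc. The iron chaperones Pcbp1 and Pcbp2 differed by 0.31 ± 0.12 and 0.32 ± 0.14. The adjusted limma p of the difference was 0.133, 0.200 and 0.220 in that order, so it passed for none of them, and the opposite directions against Control were not tested as such.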

How the results depend on the processing

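No member was called in any comparison with a pseudocount of 8, without the filter on low values, with the same total per library, with edgeR, with only the groups compared or without libraries 3. DESeq2 called 2 members with Dox, 1 with Tc and 12, 1 and 9 list genes with Dox, with Tc and between the drugs. Its shares of all genes were 8.71%, 1.41% and 4.67%. Without the fold limit there were 1 member and 10 list genes with Dox, where 8.41% of all genes passed. By unadjusted p with the fold limit there were 2 members and 10 list genes with Dox, 1 and 2 with Tc, and 10 list genes between the drugs, where 10.3%, 3.21% and 6.52% of all genes passed. Leaving out 1 library gave 0 to 3 members and 0 to 16 list genes with Dox, 0 members and 0 to 1 list genes with Tc, and 0 to 1 members and 0 to 12 list genes between the drugs. Shares of all genes are not given for fits with 1 library left out, edgeR, only the groups compared or the replicate block. Without libraries 3, limma called 0 and DESeq2 1 list gene with Dox, where 0% and 0.851% of all genes were called. In the fit of Tc and Control alone, 1 list gene was called. With the replicate block, the fit of 9 libraries called 0 members in each comparison, and of list genes 5 with Dox and 0 otherwise. The replicate block in fits of only the groups compared called 0 members, 0 list genes with Dox and 2 with Tc; Control did not pair by number. The block changed no other call.

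Small log2 fold changes changed sign. With Tc, Hamp was at -0.0034 without libraries 3 and between -0.23 and 0.51 with single libraries left out. With Dox, Tfrc was at 0.084 with the same total, 0.025 with DESeq2, 0.009 with edgeR, 0.11 with DESeq2 without libraries 3 and between -0.46 and 0.25 with single libraries left out. Fth1 with Dox was at -0.0057 with DESeq2, -0.0193 with edgeR and between -0.12 and 0.10. Id1 with Dox lay between -0.072 and 0.84. Between the drugs, Ftl1 was at -0.0234 without libraries 3 and between -0.21 and 0.26, Hamp2 lay between -0.29 and 0.33, Tfrc between -0.56 and 0.14, and Bmp6 between -0.18 and 0.52. The cause was not tested. Of 570 log2 fold changes of members under the alternatives, 541 kept their direction and their side of the threshold, 21 reversed and 8 passed the thresholds only under the alternative. Low counts limit Id1 and Bmp6.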

Other observations

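Alas2, which encodes the erythroid enzyme that starts haem synthesis and carries an iron-responsive element, was singled out after its values were seen. It had 119, 335 and 222 normalized counts in Control, 1368, 46.0 and 828 in Dox and 1212, 115 and 775 in Tc. Libraries 1 and 3 of either drug were above every Control library, and library 2 of either drug was below them. The globin genes did not share that order: Hbb-bs had 815, 3277 and 2222 normalized counts in Control, 708, 481 and 604 in Dox and 573, 748 and 555 in Tc.

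Tmprss6, the hepatocyte protease that lowers hepcidin expression by cleaving the BMP co-receptor hemojuvelin, was also chosen after its values were seen. It had 4069, 4196 and 4066 normalized counts in Control, 6056, 2175 and 4469 in Dox and 6374, 4131 and 5929 in Tc. Dox 2, where Hamp was highest, had the lowest Tmprss6 of the 9 libraries, as it did for 32.1% of all genes tested. The gene of hemojuvelin, Hjv, had 1029.5 normalized counts in Dox 2, the highest value of the 9, against 451 to 564 in Control. Dox 2 was the highest library for 33.4% of all genes.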
